A study of Mus musculus with 4 samples.

Results

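The regions described here are the m6A peaks of genes that carried at least 2 peaks in Wtap-CKO hearts and none in control hearts. They were found by gene ID in the peak lists of the 2 genotypes: a gene entered when the knockout list gave it 2 or more peaks and the control list gave it no peak. The rule took 389 of 21179 knockout peaks, which belonged to 180 of 10904 genes with a knockout peak. Both lists together named 12182 genes, of which 10734 had a control peak.

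The measurement was MeRIP-seq, in which fragmented RNA is precipitated with an antibody to N6-methyladenosine (m6A) and sequenced beside the unprecipitated input. The knockout group was Wtap-CKO hearts, and the control group was Wtapflox/flox hearts, both from mice 4 days old. RNA was pooled from 8 knockout mice and from 7 control mice, and each genotype gave 1 IP and 1 input library. The label does not name the Cre driver of the knockout, and the titles of the knockout samples carry the abbreviation WBKO. Each genotype was 1 pool, so no difference between genotypes had a replicate check, and no test or p-value between genotypes is given. Intervals below are exact binomial or order-statistic intervals and cover counting error only. The depth behind each peak is unknown, because the deposited lists give no counts of reads.

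m6A is a methyl mark on adenosines of messenger and long noncoding RNA, and it is known for its part in RNA splicing, decay and translation. The methyl group is placed by a complex built on Mettl3 and Mettl14, and Wtap is the subunit that brings this pair to nuclear speckles and to its RNA targets. In a peak list, a change in the mark and a change in the level of its transcript cannot be told apart.

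The targeted gene had peaks in both lists. Wtap carried 4 knockout peaks, with folds of 4.58, 28.1, 3.13 and 6.56, and 3 control peaks, with folds of 9.9, 11.8 and 6.82. Fold is the authors' own value per peak, the enrichment of IP over input, and it ranks peaks within a list without giving a transcript level. The deleted part of Wtap is not stated in the labels, so these peaks do not check the genotype. All 10 cardiomyocyte markers and all 7 endothelial markers had a peak in the knockout list and in the control list. Of 7 fibroblast markers, 7 had a knockout peak and 6 a control peak, with Dcn absent from the control list, and of 6 smooth muscle markers it was 6 and 5, with Acta2 absent there. Coverage was thin for the other panels: 3 of 7 epicardial markers had a knockout peak and 2 a control peak, 2 of 5 myeloid and 1 of 4 erythroid markers had a peak in each list, and 1 of 5 Schwann and neuronal markers had a knockout peak and 0 a control peak. The part of cell composition in the results below was not tested.

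Absence from the control list was uncommon among genes with several peaks. Of 5649 genes with 2 or more knockout peaks, 180 lacked a control peak, a share of 3.19% (95% interval 2.74 to 3.68%). The same rule turned round, genes with 2 or more control peaks and no knockout peak, took 244 of 5453 genes, or 4.47% (3.94 to 5.06%), and 564 control peaks. Knockout-only genes were fewer than control-only genes in this class. Genes with 1 peak ran the other way, with 24.1% of 5255 knockout genes and 19.6% of 5281 control genes absent from the other list.

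The share shrank with each further peak. It was 5.0% of knockout genes with 2 peaks and 1.41% of those with 3. At 4 peaks it was 0.48% and at 5 peaks 0.386%. None of the 226 knockout genes with 6 or more peaks lacked a control peak, which allows a share of up to 1.62%. In control genes the shares for 2, 3, 4, 5 and 6 or more peaks were 6.34%, 2.95%, 1.6%, 0.82% and 0.858%. By count, 156 of the 180 genes had 2 peaks, 20 had 3, 3 had 4 and 1 had 5.

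Absence also followed the strength of a gene's strongest peak, taken as its smallest log10 q. Among genes whose best log10 q was above -3, 25.0% of 176 knockout genes and 45.3% of 137 control genes had no peak in the other list. Between -20 and -10 the shares were 1.03% of 1064 knockout genes and 4.23% of 970 control genes. At -50 or under, 2 of 1529 knockout genes (0.131%) and 4 of 1827 control genes (0.219%) were absent from the other list. Between -5 and -3 the shares were nearly equal, at 14.5% of knockout genes and 14.6% of control genes. The intervals of the genotypes overlapped in that band and at -50 or under.

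**Figure D1:**
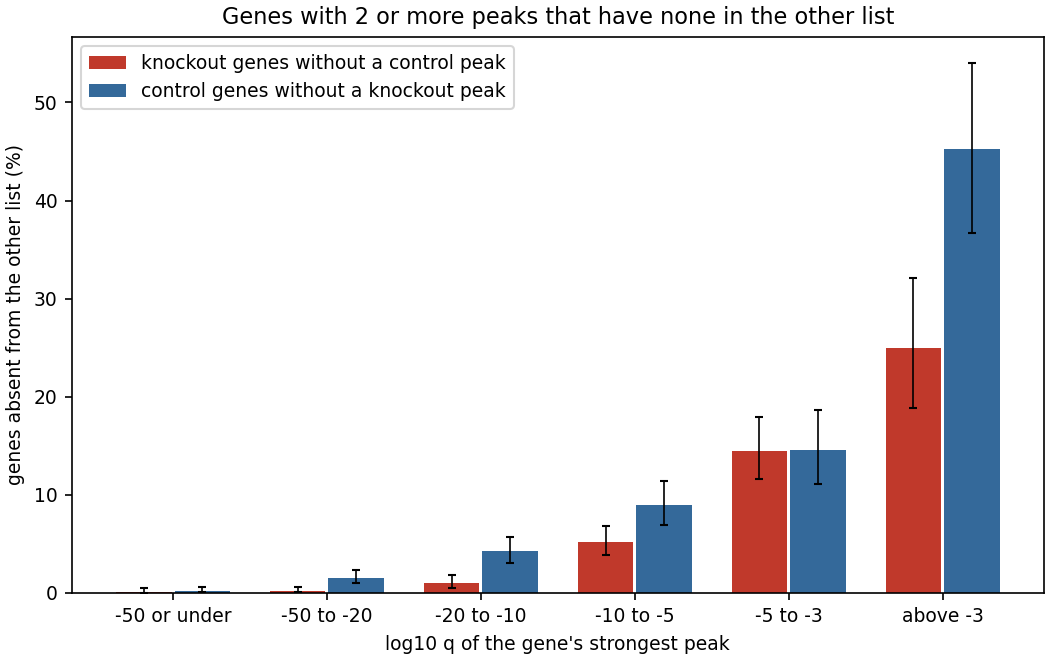
Share of genes with 2 or more peaks that had no peak in the other list (y, percent) by the log10 q of the gene's strongest peak (x), for knockout genes (red) and control genes (blue), with exact 95% binomial intervals as error bars. Shares climb toward weak peaks in both genotypes, to 25.0% of knockout genes and 45.3% of control genes above -3.

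The 389 peaks were weak by q and high by fold. Their median log10 q was -3.04, against -7.97 for the other knockout peaks, and 17 of them (4.37%) reached a log10 q of -10, against 43.9% of the others. Their median fold was 9.38 (7.69 to 10.3), against 7.03 (6.96 to 7.16) for the other knockout peaks. The lowest fold was 1.22 and the highest 54.4. Member peaks were also narrower, with a median of 151 exonic bases against 241, and 14.1% of them spanned more than 1 exonic block, against 23.4%. Among peaks with log10 q above -5 the widths were close: 150 bases for 309 member peaks and 151 for 7575 other knockout peaks. The shares that spanned more than 1 exonic block were close there too, at 14.9% and 15.6%. The folds stayed apart there, at medians of 10.3 and 6.0. Strength was not fully matched in this band, with median log10 q of -2.69 for member peaks and -3.1 for the others. The profile was not particular to these genes: the 564 peaks of control-only genes had a median fold of 9.62 and a median log10 q of -3.3. Knockout-only genes with 1 peak had medians of 7.27 and -3.35. The rule drew on the same peak calls, so these values are a description.

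Many of these folds were repeated values. In the knockout list, fold took whole multiples of 0.938 from 9.38 to 45.0, and each of these 39 values occurred again and again with 1 fixed, weakest p. The commonest, a fold of 13.1 with a log10 p of -3.13, was given to 218 knockout peaks, 18 of them member peaks. In all 128 of the 389 member peaks (32.9%, 28.3 to 37.8%) lay on this series, against 10.2% of the other knockout peaks. Knockout-only genes with 1 peak had a like share, 28.9%. Among peaks with log10 q above -5 the shares were 37.9% of member peaks and 21.5% of the others. The control list had a series of its own, in steps of 0.802, which held 32.3% of the peaks of control-only genes and 9.02% of the other control peaks. The labels do not say how the caller formed such values. By gene, 33 of the 180 had every peak on the series, 48 had some and 99 had none.

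**Figure D2:**
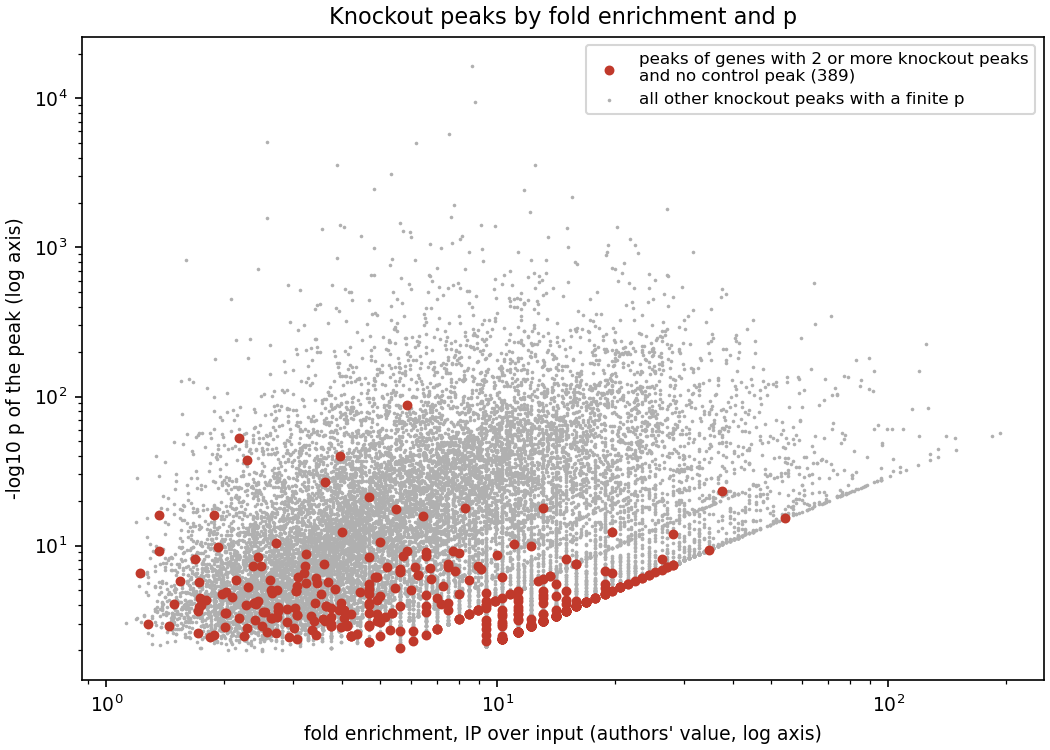
Each knockout peak with a finite p by its fold enrichment over input (x, log axis) and -log10 p (y, log axis), with the 389 peaks of genes lacking a control peak in red and the other knockout peaks in grey. Most red points lie low in the cloud, and 128 sit on the sloping lower edge of repeated values between folds of 9.38 and 45.0.

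A vascular gene, Tm4sf1, held the strongest peak. The roles used from here on were assigned to the 180 genes after their values were seen, so the classes are a way to read the list and no result in themselves. Tm4sf1, which encodes a membrane protein of endothelial cells, had peaks at chromosome 3, 57194829 to 57195008 (fold 3.96, log10 q -38.0), and 57202114 to 57202443 (fold 5.86, log10 q -86.0); coordinates are GRCm39 and count from 1. It was the only gene of the 180 whose every peak reached a log10 q of -10. Ace, the angiotensin-converting enzyme on the vessel wall, had folds of 3.63 and 19.7 with log10 q of -25.1 and -5.56. Lyve1, a hyaluronan receptor of lymphatic endothelium and some macrophages, had folds of 3.84 and 3.65 at -4.22 and -3.1. Hdac7, a class IIa histone deacetylase known for its role in endothelium, had folds of 6.56 and 2.72 at -8.03 and -9.33. Procr, the endothelial receptor of protein C, had 3 peaks with folds of 4.69, 4.92 and 13.6, the strongest at -5.33. Epor, the erythropoietin receptor, had folds of 7.03 and 15.0 at -2.02 and -4.1. The 8 vascular and blood genes had 17 peaks with a median fold of 5.63, and 1 of these peaks was on the repeated series.

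Matrix genes included some strong peaks, and most of their folds were low. Mfap4, a microfibril-associated glycoprotein, had folds of 1.72 and 4.69 at log10 q of -1.86 and -19.8. Ltbp2, which binds fibrillin microfibrils, had folds of 5.49 and 3.22 at -16.2 and -6.35. Bgn, the proteoglycan biglycan, had the lowest fold of all 389 peaks, 1.22 at -5.64, beside another of 1.36 at -14.8. Bmp3, a secreted member of the BMP family, stood apart from these with folds of 10.3 and 28.1 on the repeated series. Thbs4 and Pdgfd, a thrombospondin and a platelet-derived growth factor, had best log10 q values of -7.49 and -5.06. The 14 genes of this class had a median fold of 4.69 and 5 of 28 peaks on the series, and the strongest peak of 8 of them reached a log10 q of -5. In bulk tissue, a change in the number of cells of a type and a change in RNA per cell cannot be told apart. Neither can be read from a peak list.

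Adhesion and cytoskeleton genes mixed strong and weak peaks. Arhgef28, a guanine nucleotide exchange factor, had a peak of fold 37.5 at log10 q -21.8 at chromosome 13, 98065926 to 98066166, and a weaker one of 2.75 at -3.04. Zyx, the focal adhesion protein zyxin, had folds of 3.1 and 34.7 at -5.24 and -8.31. The stronger of them was on the repeated series and lay over a knockout peak of Epha1 on the other strand. Trip6, another LIM protein of the zyxin family, had folds of 3.25 and 19.7 at -7.71 and -11.3. Itga4, the integrin alpha 4 chain, had folds of 14.1 and 27.2, both on the repeated series. Pcdh9, a protocadherin, had the most peaks of any of the 180 genes, 5 peaks with folds between 12.2 and 24.4, of which 4 were on the series. Cldn15, a tight junction claudin, had folds of 3.07 and 7.27 at -2.63 and -4.49. In this class of 20 genes, 25 of 46 peaks were on the series.

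Immune and pattern recognition genes had the highest median fold and the most repeated values. Their 19 genes had 45 peaks with a median fold of 12.2, and 28 of the 45 lay on the series. Tlr7, a receptor for single-stranded RNA, had 3 peaks with folds of 14.1, 14.1 and 12.2, all on it. Tlr6 and Nod2, receptors of bacterial lipopeptides and of muramyl dipeptide, likewise had 3 peaks each on the series. Lif, a cytokine of the interleukin 6 family, had folds of 21.6, 15.9 and 9.85 at log10 q of -4.62, -3.1 and -3.39. Its peaks of 21.6 and 15.9 were on the series. The strongest peak of the class was in Nfkbib, an inhibitor of NF-kappa-B, at a log10 q of -9.23. Myeloid markers were thinly covered in both genotypes: Ptprc, Cd68 and Itgam had no peak in either list, while Csf1r and Lyz2 had peaks in both. Their part in the result was not tested.

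**Figure D3:**
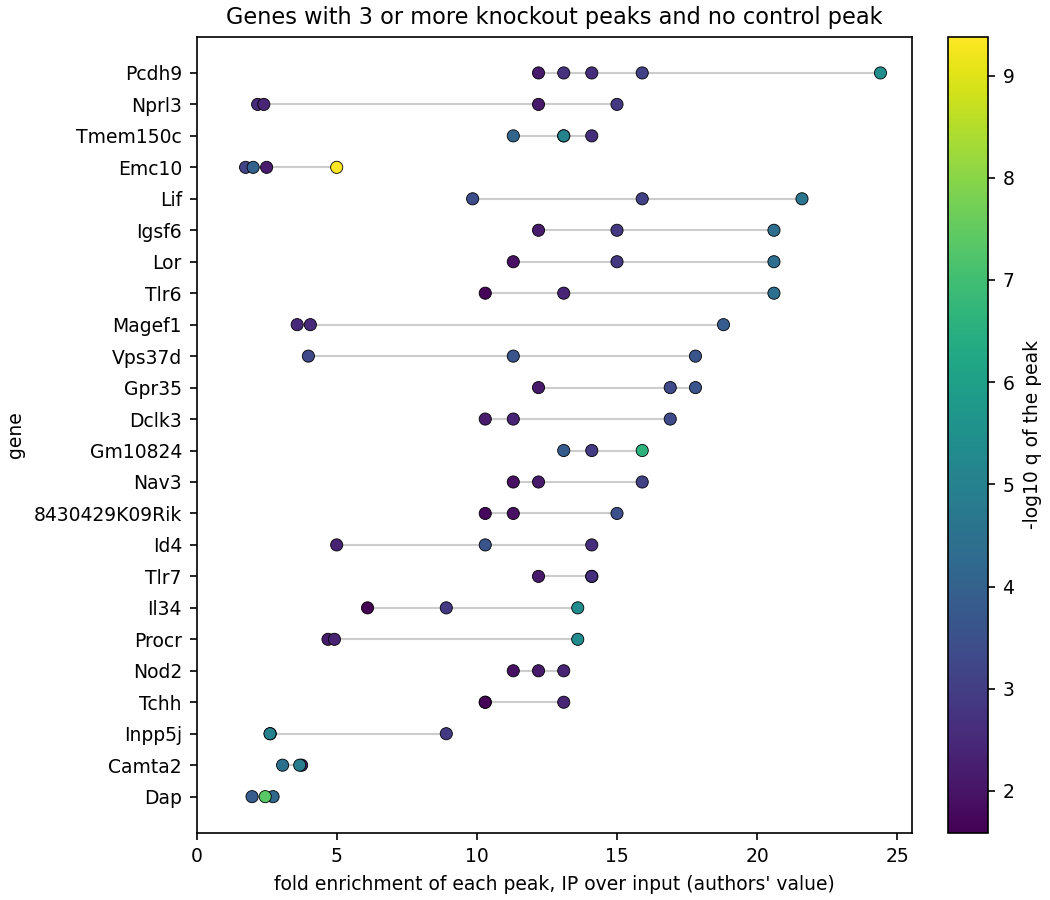
Fold enrichment over input (x) of every peak of the 24 genes with 3 or more knockout peaks and no control peak (y, genes), coloured by -log10 q. Pcdh9 has 5 peaks between 12.2 and 24.4, and Emc10 holds the strongest peak of the plot, fold 5.0 at a log10 q of -9.38.

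Cell death genes numbered 4, with 9 peaks and a median fold of 4.0. Fas, a death receptor, had folds of 4.22 and 7.5 at log10 q of -2.71 and -3.28. Dap, death-associated protein, had 3 peaks with folds between 1.98 and 2.73, the strongest at -7.35.

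Signalling, receptor and channel genes formed the largest class with named roles, with 26 genes and 56 peaks. Gpr160, an orphan G protein-coupled receptor, had the highest fold of the 389 peaks, 54.4 at log10 q -14.2 at chromosome 3, 30950831 to 30951131. Its other peak, of fold 26.3 at -5.92, was on the repeated series. Adcy7, an adenylate cyclase, had folds of 2.9 and 8.27 at -2.31 and -16.8. Slco2b1, an organic anion transporter, had 2 peaks of fold 13.1 whose log10 q were -16.7 and -2.69, so that equal folds stood beside unequal q. Syt15, a synaptotagmin, had folds of 11.3 and 28.1, both on the series. Nprl3, a subunit of the GATOR1 complex that restrains mTORC1, had 4 peaks, the strongest at a log10 q of -2.86 and one over a control peak of Mpg on the other strand. Rgs4, which shortens G protein signalling, had folds of 5.86 and 16.9 at -8.19 and -3.35, the latter on the series.

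Transcription factor and DNA maintenance genes had mostly weak peaks. Wt1, a zinc finger factor of the epicardium, had a peak of fold 15.0 at log10 q -7.12 at chromosome 2, 104956964 to 104957562, and another of fold 2.01 at -2.72. Among the epicardial markers, Upk3b, Upk1b, Msln and Lrrn4 had no peak in either list. Tbx18 and Aldh1a2 were the 2 with peaks in both. Peak lists give no summed marker level, and the part of epicardial cell number in the Wt1 peaks was not tested. Camta2 and Id4, a calmodulin-binding transcription activator and an inhibitor of basic helix-loop-helix factors, had 3 peaks each, with best log10 q of -4.79 and -3.62. The 14 genes of the class had a median fold of 8.2, and the strongest peak of 3 of them reached a log10 q of -5.

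Translation and protein quality genes had low folds and a few strong peaks. Rpl26, a large ribosomal subunit protein, had folds of 15.9 and 2.29 at log10 q of -3.1 and -36.0. Its peak of fold 15.9 was on the series. Pdia5, a protein disulfide isomerase, had folds of 28.1 and 11.3 at -10.7 and -2.71. Emc10, a subunit of the endoplasmic reticulum membrane complex, had 4 peaks with folds of 1.75, 2.02, 2.5 and 5.0, the strongest at -9.38. Their 20 genes had a median fold of 5.0, and 6 of 43 peaks lay on the series. Among the 10 metabolic genes, Ndufb1, a subunit of respiratory complex I, had folds of 2.18 and 4.13 at -51.0 and -2.14. Rpl26, Actb, Aldoa, Eef1b2 and Tubb3 have close copies elsewhere in the genome, and how reads were shared among copies is not given, so their peaks are uncertain. Tubb3, a beta-tubulin of neurons, had folds of 13.1 and 8.44, the former on the series. The other 4 Schwann and neuronal markers had no peak in either list.

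In all, 33 of the 180 genes were classed together as noncoding genes, pseudogenes and transcripts with a serial name. The class did not follow RefSeq type throughout. Hyi and Magef1, pseudogenes by type, and Morrbid, long noncoding by type, were in other classes, and Pin1rt1, coding by type, was in this one. Snhg20, a small nucleolar RNA host gene, had folds of 6.44 and 3.62 at log10 q of -14.5 and -2.35. Rpl3-ps1, a processed copy of Rpl3, had folds of 1.73 and 1.88 at -4.78 and -14.9 and shares the doubt over copies. 9930012K11Rik had folds of 27.2 and 16.9, both on the series. By RefSeq type, 81.7% of the 180 genes were coding, 8.89% long noncoding and 5.56% pseudogenes, against 95.2%, 1.92% and 0.713% of the 5469 genes with several knockout peaks and a control peak. Among genes whose strongest peak was above a log10 q of -5, pseudogenes were 5.98% of 117 member genes and 0.89% of 562 others, and long noncoding genes 11.1% and 5.69%. Of the 12 genes put in no other class, Tmem150c, a membrane protein, had 4 peaks with folds between 11.3 and 14.1. Its best log10 q was -5.08, and 2 of its peaks were on the series.

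**Figure D4:**
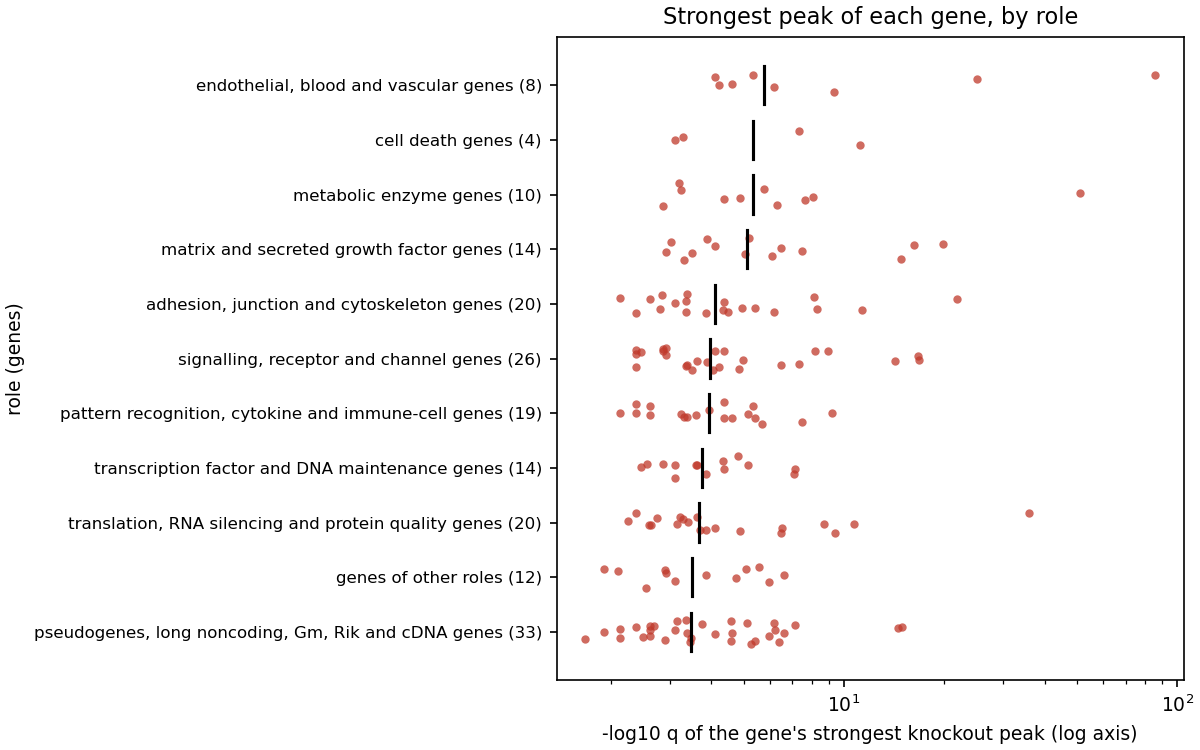
Strength of each gene's strongest knockout peak as -log10 q (x, log axis) for the 180 genes grouped by role (y, number of genes in brackets), each point a gene and each black bar the median of its class. Vascular, cell death, metabolic and matrix genes have the highest medians, and Tm4sf1 lies farthest right at a log10 q of -86.0.

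Set against lists of genes by cell type and pathway, the members were spread thinly, and the shares are read against 3.19% of all genes with 2 or more knockout peaks. Counts of control-only genes are read against 4.47% of the 5453 genes with 2 or more control peaks. No member was found among 21 cardiomyocyte genes with several knockout peaks, 41 axon guidance genes, 23 cell cycle genes or 14 genes of the m6A machinery. At a share of 3.19%, lists this short would hold few members or none. None was found among 202 zinc finger genes named Zfp, while 12 of 220 such genes with several control peaks lacked a knockout peak; the difference was not tested. Fibroblast and matrix genes gave 2 of 20 (Bgn and Mfap4), endothelial genes 2 of 23 (Lyve1 and Tm4sf1) and epicardial genes 2 of 3 (Cldn15 and Wt1). No control-only gene with several peaks was on those 3 lists, of 14, 22 and 1 genes. These lists are short, and the difference between genotypes was not tested. Inflammation genes gave 2 of 19 (Lif and Tlr7), developmental signalling genes 1 of 41 (Bmp3) and erythroid genes 1 of 3 (Epor). Myeloid and lymphoid genes gave 0 of 6, while 8 of the 17 listed genes with a knockout peak had a lone knockout peak and no control peak. Over all genes, 1268 of the 10904 with any knockout peak had a lone one and no control peak. They were 24.1% of the genes with a lone knockout peak. Predicted Gm genes gave 13 of 174 (7.47%) and Rik genes 9 of 133 (6.77%), and control-only genes numbered 22 of 182 and 21 of 153 in the same families.

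Spacing between peaks of a gene was often short but varied widely. The 180 genes spanned a median of 2480 bases from first to last peak, 54 of them spanned under 1000 bases, 11 spanned over 100000 bases, and the widest was Pdgfd at 208453 bases. The median gap between neighbouring peaks was 960 bases, against 1740 bases in the other genes with several knockout peaks, while gaps over 10000 bases made up 23.0% and 26.8%. Neighbours overlapped in 7.18% of 209 gaps, against 1.79%, and 29 peaks of 14 genes, such as Gm9885, 0610039K10Rik and Scarb2, shared bases with another peak of their own gene. With such peaks joined, each of these 14 genes had a single peak, and 166 of the 180 genes still met the rule. Peaks of 1 gene also differed in fold: the highest over the lowest had a median of 1.64, it was 1.5 or less in 81 genes, and it was 4 or more in 31. The genes lay on 20 chromosomes. Chromosomes 11 and 7 held the most, 22 of 495 (4.44%) and 20 of 486 (4.12%) genes with several knockout peaks, and the share was highest on X, at 7 of 112 (6.25%). The 180 genes were split by strand, with 96 on the plus strand and 84 on the minus strand.

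Overlap with the peaks of other genes was limited. No member peak shared an exonic base with a control peak on the same strand. On the opposite strand 4 peaks of 4 genes did, those of Gm9947 over Msc, Nprl3 over Mpg, Csad over Zfp740 and Ptprcap over Rps6kb2. In the knockout list itself, 26 member peaks of 17 genes overlapped a peak of another gene on either strand, and 6 of these peaks, in 4 genes, did so on the same strand. Reads at such sites cannot be given to 1 gene from these lists, because the strand handling is not given. The nearest control peak on the same strand lay within 1000 bases of 6 member peaks (1.54%) and within 100000 bases of 248 (63.8%).

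Some genes lay just outside the rule. On one side, 1155 genes had 2 or more knockout peaks and exactly 1 control peak, and 197 had 3 or more. Of the 197, those named here were picked because their control peak had the largest q, so they do not stand for the rest. Llgl2, a polarity protein, had 3 knockout peaks with folds of 8.44, 12.2 and 17.8 and 1 control peak of fold 6.02 at log10 q -1.64. Fhod1, a formin, had 4 knockout peaks, the strongest of fold 16.9 at -11.3, and 1 control peak of fold 1.86 at -1.78. Sema5b and Plbd2 had 3 knockout peaks each and 1 control peak at -1.83 and -1.97. On the other side, 1268 genes had 1 knockout peak and no control peak, some of them strong. Those named had the smallest p. Nppb, the natriuretic peptide of strained heart muscle, had a knockout peak of fold 3.01 at -79.0. The mitochondrial gene mt-Nd6 had one of fold 1.6 with a log10 p of -824.0, and Gm10039 and Gm10221 had folds of 1.63 and 1.67 at -130.0 and -122.0.

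Of the 180 genes, 16 had a peak at a log10 q of -10 or under, 63 at -5 or under and 136 at -3 or under. Every peak reached -3 in 51 genes and -5 in 17. A set of 15 genes met the rule under the deposited lists and under 9 alternatives on q, fold, joined peaks and list length: Gpr160, Rgs4, Hyi, Gm10824, Serhl, 9930012K11Rik, Pcdh9, Pdgfrl, Lif, Ppp1r16b, Gm15542, Map3k12, Vps37d, Olfr78 and Csad. No alternative could give a member gene a control peak, so the 9 bear only on the strength, fold and spacing of its knockout peaks. Settings on overlap and on the repeated series were not among the 9. Csad had a peak over a control peak of Zfp740 on the other strand, and 9930012K11Rik had every peak on the series. Tm4sf1, the gene with the strongest peaks, was not among the 15 genes, because 1 of its peaks had a fold of 3.96, just under the setting of 4.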

How the data were processed

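MeRIP-seq was run on 1 IP and 1 input library per genotype. Per the series' design text, exomePeak 2.16.0 was the authors' peak caller, run on IP over input for each genotype with q kept at 0.05 or under. Build GRCm39 and the tools BWA 0.7.12, fastp 0.19.11 and HOMER 4.9.1 are listed, with no role stated, per the submitters' processing notes. The deposited score column holds the authors' p-value per peak, the deposited log10 p and log10 q were read as a score because some reach minus infinity, and the deposited fold is the authors' linear ratio of IP over input. Starts were moved by 1 base to count from 1.

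Genes were compared by Ensembl ID, and overlaps needed 1 exonic base. Python 3.11.15, numpy 2.4.6, pandas 2.3.3, scipy 1.17.1 and matplotlib 3.10.9 were used. The code of the gene rule was run on simulated lists and found 200 of 200 planted genes and 0 others. The planted genes met the rule by construction, so this checks the code and not the accuracy of real peak calls. Gene types came from RefSeq by symbol, with 7 of the 180 genes unmatched. Members, the 15 gene lists and the 12 name families were chosen with earlier results of these data known. Genes were named where they had 4 or more peaks, were among the 12 smallest p or the 8 largest folds at q of 0.001 or under, led a list, or stood just outside the rule; other names were chosen after their values were seen, and 1 gene that met this rule is not reported here. Sequences under the peaks, transcript regions and motifs were not analysed here.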

Additional observations from a re-analysis of the deposited data

How the results depend on the processing

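No paired analysis was possible because each genotype had 1 IP and 1 input library and the results come from no test. Of the values recomputed under other settings, 42 moved little and 7 moved further. The share of multi-peak knockout genes without a control peak was 3.19%, and it was 5.47% with folds of at least 4 in both lists, 2.59% with q of 0.01 or under asked of the knockout list only, and 2.6% with peaks within 500 bases joined. Joining within 500 bases also gave 254 joined member peaks in 122 genes, against 389 peaks, and 152 control-only genes, against 244. The median fold was 12.2 over the highest fold of each gene, against 9.38 over all peaks. Member genes over a control peak of another gene numbered 4 on either strand, 0 on the same strand and 5 over whole spans; the last 2, like leaving out genes over a knockout peak of another gene (163 genes) or wholly on the repeated series (147 genes), were chosen after seeing the data. Member genes ranged from 122 to 212 over all settings, but a like count did not mean the same genes: at q of 0.001 or under, 126 genes met the rule and 58 of them were among the 180, and at folds of at least 4 it was 109 of 212. The cause of these shifts was not tested. The lists give no read counts, so a gene absent from the control list cannot be told apart from a gene whose control peaks fell short of the threshold.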
